A study of Mus musculus with 71 samples.

Results

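The loss of the histone methyltransferase G9a (gene Ehmt2) from the mouse cortex was described here, across all named genes of the array. The members were the 4 arrays whose titles name the G9a cortex, of 71 arrays in the series: 2 from mutants and 2 from controls. Mutants carried the Camk2a-Cre transgene and G9afl/fl, in which both copies of the gene are flanked by loxP sites, and controls were their littermates, of like age and sex. Mice were between 10 and 14 weeks old by the series design, while the extraction protocol gives 12 weeks. The labels state 4 biological replicates per genotype, but the series holds only 2 G9a cortex arrays per genotype, and these were analysed here. RNA was total RNA of whole cortex, put on Affymetrix oligonucleotide arrays with several probe sets for many genes. The wider study deleted G9a or its partner GLP (gene Ehmt1) in the cortex, hippocampus, striatum and hypothalamus, giving 8 comparisons with separate controls, which the design uses to ask which genes each enzyme controls in each region.

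G9a and GLP work as a pair that adds 1 or 2 methyl groups to lysine 9 of histone H3, a mark of genes kept silent outside the constitutive heterochromatin. In neurons the complex is known for keeping genes of other lineages and of other developmental stages silent. The Camk2a promoter that drives Cre is active after birth in excitatory neurons of the forebrain, so glia, vessels, meninges and most interneurons of the dissected cortex keep the gene. In such bulk tissue, fewer cells of a type and less RNA per cell cannot be told apart.

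All intensities are multiples of the median of their array, and a log2 value of 0 is that median. The 4 arrays were close to each other, with correlations between 0.996 and 0.998 over all probe sets. The spread within the groups (root mean variance of log2 values) was 0.13 in mutants and 0.128 in controls, against 0.177 to 0.39 in the other 14 whole-tissue groups. Of 11 marker genes of cortical neurons listed as a check of the tissue 10 were tested, and none of them was called changed: Slc17a7, the vesicular glutamate transporter of cortical excitatory neurons, had intensities of 30.5 and 31.2 in mutants, against 33.6 and 25.6 in controls. Tbr1, a transcription factor of deep-layer neurons, had 49.5 and 43.6 in mutants, against 53.8 and 54.0 in controls, and Gad1, which makes GABA in interneurons, had 401 and 367 in mutants, against 403 and 401 in controls. The SEs of these log2 differences were 0.87 for Slc17a7, 0.77 for Tbr1 and 0.16 for Gad1, and 0.996 for the marker Neurod6. Large changes of Slc17a7, Tbr1 and Neurod6 could thus go uncalled. Over all genes tested 0.737% were called, a share that gives under 1 call in 10 genes. Low Xist (0.475 and 0.213 in mutants, 0.258 and 0.314 in controls) and high Eif2s3y (22.4 and 22.8 in mutants, 31.0 and 17.7 in controls) marked all 4 arrays as male. One marker of a neighbouring tissue varied widely: Ttr, the transthyretin gene of the choroid plexus, had intensities of 60.7 and 585 in mutants, against 130 and 26.4 in controls.

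The deleted gene was low in both mutants. Ehmt2 had intensities of 11.2 and 12.1 in mutants, against 41.2 and 37.8 in controls, a log2 difference of -1.76 (SE 0.19, limma adjusted p = 6.2e-09). Its partner Ehmt1 had 6.33 and 6.69 in mutants, against 6.16 and 6.2 in controls, a log2 difference of 0.07 (SE 0.16, limma adjusted p = 1). A second, dimmer Ehmt2 probe set had 1.03 and 1.16 in mutants, against 1.87 and 1.91 in controls. It was not called in a limma fit of every probe set (adjusted p = 0.733). Of 26 tested genes of the machinery that writes, erases or reads methylation of this lysine, 0 rose and 2 fell, Ehmt2 itself and Kdm3b, a demethylase of the same residue, beside 0.634% up and 0.103% down over all genes tested. Kdm3b had intensities of 5.30 and 5.10 in mutants, against 7.91 and 7.92 in controls (65.7% of control, log2 difference -0.61, SE 0.14, limma adjusted p = 0.0157). The call of Kdm3b was lost when any 1 of the 4 arrays was left out (adjusted p between 0.137 and 0.294). The median log2 difference of the list was -0.054, against -0.022 over all genes tested. Kdm3a, the close relative of Kdm3b, had 11.4 and 11.4 in mutants, against 14.0 and 13.8 in controls, and was not called. Setdb1, Suv39h2, Kdm1a and the adaptor gene Wiz were among the 24 members not called, and none of those lay outside log2 differences of -0.29 to 0.20. The list of genes around Ehmt2 on the chromosome includes Ehmt2 itself. Of its 13 tested members Ehmt2 alone was called, beside 0.737% of all genes tested.

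Over the cortex, 86 of 11675 genes tested changed at an adjusted p under 0.05 (0.737%): 74 rose (0.634%) and 12 fell (0.103%). Without adjustment, 373 genes had a p under 0.05 (3.19%). The p-values come from 1 limma fit over 59 whole-tissue arrays in 16 groups, so the spread of a gene is taken from all groups and not from these 4 arrays alone. An exact two-sided permutation test of 2 arrays against 2 cannot go below p = 0.333 for a single gene. All 86 genes had mutant and control arrays that did not overlap, as did 45.8% of all genes tested (18.4% with mutants higher and 27.4% with mutants lower). The genes that rose were dim in controls, with a median intensity of 0.927, while those that fell had a median of 7.14 in controls and all genes tested had 10.3. Of the 74 genes that rose, 36 lay below the array median in both controls, 6 in 1 control and 32 in neither. A gene below the median in both controls entered the test only where it lay above the median in both mutants, so such genes could be called only as rises. There were 98 of them among the genes tested, and 6317 of 18193 genes lay below the median in all 4 arrays and were not tested. For such genes a fold is set against the median and written as at least that fold. The calls depended on the number of arrays: 33 of the 86 remained called whichever 1 of the 4 arrays was left out, while 19 lost their call without any 1 of them. Setting values below the array median to it ended the calls of Tmprss11a, Gsta2, Tdo2, Myh8, Lamb3 and Mcm10 among the genes named below. A fit of the 8 G9a groups alone ended those of Kdm3b, Creb3, Pigo, Hsd11b1, Aldh1a1, Dysf and Mcm10, and averaging the probe sets of a gene ended those of Slc5a5, Gstm7, Creb3, Pigo and L3mbtl3. Itga8 and Ifih1 lost theirs with no filter, Wnt2 and Aldh1a1 in a fit of the 4 cortex groups, and Itga8 and Aldh3a1 with the replicate block.

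**Figure D1:**
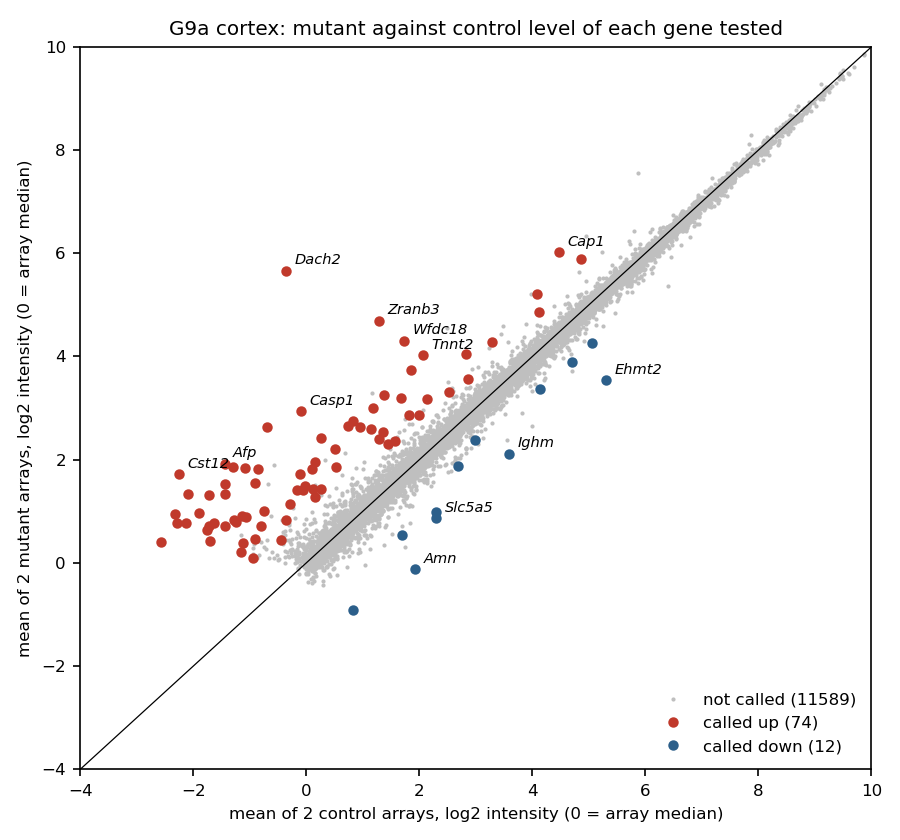
Mean log2 intensity of each gene tested over the 2 G9a cortex mutant arrays (vertical axis) against the 2 control arrays (horizontal axis), with the line of equality; red points are the 74 genes that rose, blue points the 12 that fell, and grey points the others. The red points lie mainly at the low end of the control axis, with Dach2 farthest above the line, while Cap1 stands out among brighter genes.

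The largest rise was that of Dach2, a nuclear cofactor of the dachshund family that acts in eye, limb and muscle development. Dach2 had intensities of 51.7 and 49.8 in mutants, against 0.763 and 0.792 in controls, so it was below the array median in controls and at least 50.7-fold higher in mutants (log2 difference 6.03, SE 0.31, limma adjusted p = 6.29e-21). A second Dach2 probe set had 6.2 and 8.25 in mutants, against 0.345 and 0.263 in controls. Dach2 was the 1 gene called among 32 tested homeobox, Sox and other lineage transcription factors, beside 0.737% of all genes tested. The median log2 difference of these factors was -0.077. Zranb3, a helicase that restarts stalled replication forks, followed with 25.8 and 25.9 in mutants, against 2.61 and 2.28 in controls, a 10.6-fold rise (log2 difference 3.41, SE 0.21, limma adjusted p = 5.62e-18). Casp1, the caspase that matures interleukin-1 beta in the inflammasome, had 6.89 and 8.63 in mutants, against 0.869 and 1 in controls, an 8.27-fold rise (3.05, SE 0.43, limma adjusted p = 3.94e-06). In all 3 genes both mutants stood far above both controls, and the calls remained when any 1 array was left out. Mutants lay above both controls, by any amount, in 18.4% of all genes tested.

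The promoters of these genes and of a pair of others described below are given, since CpG-poor and CpG-rich promoters are silenced by different means. Their CG counts do not span those of the genes that rose, which ran between 0 (Lama2) and 34 (L3mbtl3). Each sequence is the 250 bases before the most upstream start in the RefSeq table of build GRCm38.p6, written 5′ to 3′ on the strand of the gene, with CG dinucleotides in capitals.
Dach2 promoter, chrX:113297260-113297509, plus strand: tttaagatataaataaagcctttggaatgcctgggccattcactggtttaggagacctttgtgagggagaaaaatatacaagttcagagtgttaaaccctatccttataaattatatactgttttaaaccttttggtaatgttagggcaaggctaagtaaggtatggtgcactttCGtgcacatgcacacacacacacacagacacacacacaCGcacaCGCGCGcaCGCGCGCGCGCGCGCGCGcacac
Zranb3 promoter, chr1:128103048-128103297, minus strand: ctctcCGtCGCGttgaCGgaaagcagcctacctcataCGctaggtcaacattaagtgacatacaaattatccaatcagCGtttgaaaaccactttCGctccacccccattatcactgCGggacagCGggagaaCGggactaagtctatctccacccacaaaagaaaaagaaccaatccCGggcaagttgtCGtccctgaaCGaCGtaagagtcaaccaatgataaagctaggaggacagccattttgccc
Casp1 promoter, chr9:5298267-5298516, plus strand: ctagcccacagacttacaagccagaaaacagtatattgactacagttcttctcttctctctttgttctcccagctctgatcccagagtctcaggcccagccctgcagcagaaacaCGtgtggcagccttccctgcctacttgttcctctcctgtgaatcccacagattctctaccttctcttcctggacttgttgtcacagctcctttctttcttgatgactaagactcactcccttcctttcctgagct
Afp promoter, chr5:90490464-90490713, plus strand: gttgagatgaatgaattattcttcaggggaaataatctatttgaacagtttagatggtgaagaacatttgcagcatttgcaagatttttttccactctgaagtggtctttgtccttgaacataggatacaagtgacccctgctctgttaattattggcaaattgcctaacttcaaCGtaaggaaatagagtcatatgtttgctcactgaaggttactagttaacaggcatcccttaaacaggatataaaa
Cap1 promoter, chr4:122886077-122886326, minus strand: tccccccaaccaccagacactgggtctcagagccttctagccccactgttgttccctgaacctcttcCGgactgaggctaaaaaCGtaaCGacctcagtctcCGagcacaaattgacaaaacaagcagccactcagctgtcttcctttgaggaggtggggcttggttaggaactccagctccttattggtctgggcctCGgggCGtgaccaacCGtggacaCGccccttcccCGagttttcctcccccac
Casp1 and Afp each held 1 CG in this window. Zranb3 held 14 and Cap1 held 9, spread along the window. Dach2 also held 14, most of them in a repeat of alternating bases at its 3′ end. Of the 74 genes that rose, 61 had an entry, with a median of 4 CG per window, and 39 of these (63.9%) held 5 or fewer. Over the 9473 genes tested that had an entry, the median was 16 and 12.8% held 5 or fewer. Dim genes had few as well: among 119 genes tested whose controls averaged below the array median, the median was 5 and 50.4% held 5 or fewer, as did 49.5% of all promoters of the table. These dim genes include genes that rose, and those below the median in both controls entered the test through the mutants. They are thus no separate background for the genes that rose. The motif TATAAA on either strand, which does not overlap CG, was in 26.2% of the windows of genes that rose, 21% of those of the dim genes, 6.27% of those of all genes tested and 13% of all windows of this length in the table. The motif CAGCTG, a palindrome bound by muscle and neuronal basic helix-loop-helix factors, was in 14.8% of the windows of genes that rose and in 11.2% of those of all genes tested. The 8 genes that fell and had an entry held a median of 16 CG.

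The other large rises came from genes with very different usual sites of expression. Wfdc18, a secreted protein of the whey acidic protein family, had intensities of 20 and 19.6 in mutants, against 3.69 and 3.00 in controls (5.95-fold, log2 difference 2.57, SE 0.41, limma adjusted p = 5.3e-05). Scn7a, an atypical sodium channel that senses salt, had 5.17 and 5.5 in mutants, against 1.33 and 1.06 in controls (4.48-fold). Esr1, the estrogen receptor alpha gene, had 12.7 and 14.1 in mutants, against 3.27 and 3.93 in controls (3.72-fold). Mutants were above both controls in each of them, as in 18.4% of all genes tested. Genes of the cell's contact with the matrix rose too. Ddr2, a receptor tyrosine kinase for collagen, had 7.34 and 6.13 in mutants, against 1.62 and 1.92 in controls (3.8-fold). Lama2, a laminin chain, had 9.57 and 9.58 in mutants, against 2.49 and 2.72 in controls (3.68-fold, limma adjusted p = 8.29e-08). Itga8, an integrin chain, rose 3.75-fold and Col22a1, a collagen of tissue junctions, 3.31-fold. These 4 matrix genes were grouped after their values were seen.

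Dnah1, a motor protein of cilia and flagella, had intensities of 7.90 and 8.15 in mutants, against 2.23 and 2.31 in controls (3.53-fold, log2 difference 1.82, SE 0.21). Serpinb1b, a serine protease inhibitor, had 3.51 and 4.30 in mutants, against 1.09 and 1.13 in controls (3.5-fold). Cst12, of the cystatin family of protease inhibitors, had 3.89 and 2.82 in mutants, against 0.179 and 0.243 in controls (at least 3.31-fold). Gkn1, a protein secreted by the stomach lining, had 3.46 and 3.63 in mutants, against 0.419 and 0.734 in controls (at least 3.55-fold). Both mutants stood above both controls for these 4 genes, as they did for 18.4% of all genes tested. Some calls were lost when 1 array was left out, which leaves 2 arrays against 1 and so less power whichever array goes. Itga8 was lost without any 1 of the 4 arrays (adjusted p up to 0.743), Scn7a without either mutant or control 2 (up to 0.154), Esr1 without either mutant or control 1 (up to 0.168), Serpinb1b without mutant 2 (0.0882) and Col22a1 without mutant 1 (0.071). A second Esr1 probe set, with 2.62 and 2.13 in mutants against 1.01 and 0.925 in controls, was not called in a limma fit of every probe set (adjusted p = 0.454). Second probe sets of Ddr2 and Scn7a were not called in that limma fit either (log2 differences 0.82 and 1.27, adjusted p = 0.345 and 0.476).

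**Figure D2:**
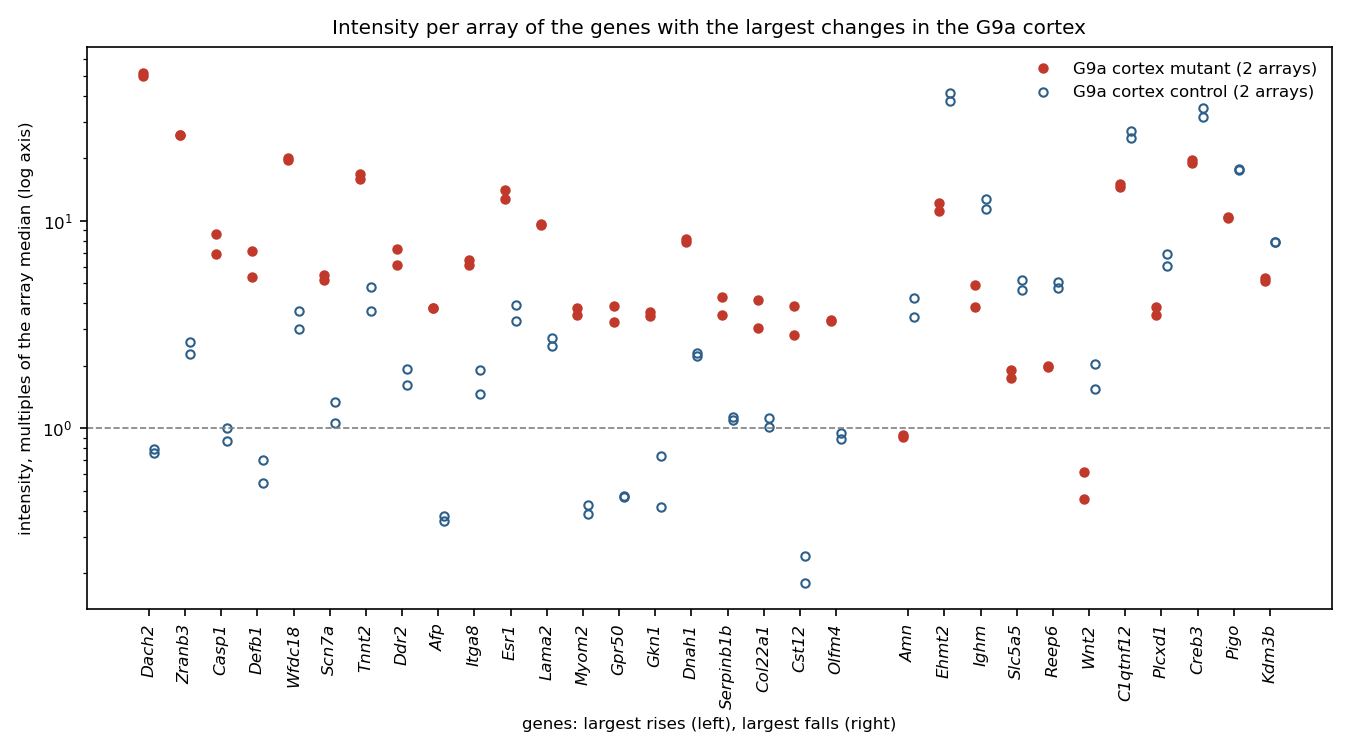
Intensity of each G9a cortex array (log axis, in multiples of the array median, dashed line at 1) for the 20 genes with the largest rises and the 11 with the largest falls among named genes; filled red points are the 2 mutant arrays and open blue points the 2 control arrays. Mutant and control points do not overlap for any gene shown, as for 45.8% of all genes tested, and many of the rises start from controls at or below the line.

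Contractile genes of muscle were among the rises. Of 47 muscle genes listed, 20 were tested and 27 lay below the array median in all 4 arrays, so most of the muscle program was not detected. Among those tested, 4 rose and 0 fell, against 0.634% up over all genes tested, and the median log2 difference was 0.80, a figure that the filter on dim genes raises. Of these 4, Myom2 and Myh8 had both controls below the median and entered the test through the mutants. Tnnt2, the cardiac troponin T gene, had intensities of 16.7 and 15.8 in mutants, against 4.80 and 3.68 in controls (3.87-fold, log2 difference 1.95, SE 0.34, limma adjusted p = 0.000217). A second Tnnt2 probe set had 13.6 and 13.8 in mutants, against 4.11 and 3.23 in controls, and was called as well. Myom2, a protein of the sarcomere's M-band, had 3.78 and 3.52 in mutants, against 0.429 and 0.388 in controls (at least 3.64-fold). Pgam2, the phosphoglycerate mutase of muscle, had 8.83 and 9.47 in mutants, against 2.99 and 3.41 in controls (2.87-fold). Myh8, a perinatal myosin heavy chain, had 1.80 and 1.73 in mutants, against 0.322 and 0.528 in controls (at least 1.77-fold). In all 4 genes both mutants were above both controls, as they were in 18.4% of all genes tested. Pgam2 lost its call without either mutant or control 1 (adjusted p up to 0.156) and Myh8 without mutant 1 or control 1 (up to 0.219).

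Other members of the list had high mutant values but were not called. Myl4, an atrial light chain, had 24.6 and 22.6 in mutants, against 6.48 and 4.88 in controls (limma adjusted p = 0.285). Myh1, a fast myosin heavy chain, had 3.78 and 3.62 in mutants, against 0.698 and 0.640 in controls (0.119), and Myh7, the slow one, had 19.7 and 23.7 in mutants, against 10.3 and 11.5 in controls (0.285). For these genes the spread over the other groups was large, with SEs of the log2 difference of 0.67, 0.70 and 0.32. Acta1, the skeletal actin gene, Tnnc1, a slow and cardiac troponin gene, and Ryr1, the calcium release channel of skeletal muscle, had log2 differences of 0.41, -0.14 and 0.05 and were not called. Called muscle genes outside the list, picked after their values were seen, included Neb, the giant thin-filament protein nebulin, with 2.63 and 2.42 in mutants, against 0.238 and 0.232 in controls (at least 2.52-fold). Sln, the calcium pump inhibitor sarcolipin, rose at least 2.53-fold and Dysf, the membrane repair protein dysferlin, at least 1.63-fold, though the Dysf call was lost without any 1 of the 4 arrays (adjusted p up to 0.995). The Neb and Sln calls remained without any 1 array.

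Genes of liver, kidney and epithelia changed one by one. Of 8 tested liver and plasma protein genes 2 rose, Afp and Fbp1, beside 0.634% of all genes tested. Of the 34 measured, 24 lay below the median in all 4 arrays, and both that rose had dim controls, so they entered the test through the mutants. Afp, the fetal plasma protein alpha-fetoprotein, had intensities of 3.78 and 3.79 in mutants, against 0.377 and 0.357 in controls (at least 3.79-fold, log2 difference 3.37, SE 0.45, limma adjusted p = 1.01e-06). Fbp1, the fructose bisphosphatase of liver and kidney, had 1.52 and 1.78 in mutants, against 0.232 and 0.393 in controls (at least 1.64-fold). Of 8 tested kidney and transport genes 1 rose and 2 fell, beside 0.634% up and 0.103% down over all genes tested. Defb1, an antimicrobial peptide of epithelia, had 7.17 and 5.33 in mutants, against 0.544 and 0.702 in controls (at least 6.18-fold, limma adjusted p = 0.0124). The Defb1 call did not survive the removal of any 1 array (adjusted p up to 0.27). Amn, the partner of the uptake receptor cubilin in kidney and gut, had 0.906 and 0.930 in mutants, against 4.22 and 3.44 in controls, at least 3.81-fold lower (log2 difference -2.05, SE 0.34, limma adjusted p = 0.000114). Slc5a5, the iodide transporter of the thyroid, had 1.74 and 1.90 in mutants, against 5.19 and 4.65 in controls (37% of control), and its call was lost without mutant 1 or control 1 (adjusted p up to 0.0698). Of the 24 kidney-type genes measured, 16 lay below the median in all 4 arrays. Defb1 had both controls below the median and entered the test through the mutants.

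Of 9 tested genes of skin and secretory epithelium 3 rose, Wfdc18, Olfm4 and Tmprss11a, beside 0.634% of all genes tested, while 40 of the 50 listed lay below the median in all 4 arrays. Olfm4 and Tmprss11a had both controls below the median and entered the test through the mutants. Olfm4, a secreted glycoprotein of intestinal crypts, had intensities of 3.29 and 3.31 in mutants, against 0.891 and 0.952 in controls (at least 3.3-fold). Tmprss11a, a serine protease of airway-type epithelium, had 1.25 and 1.40 in mutants, against 0.180 and 0.155 in controls (at least 1.32-fold). The keratin gene Krt5, a marker of basal epithelium, had 0.952 and 0.988 in mutants, against 1.19 and 1.17 in controls and was not called. Of 7 tested pigment and sensory genes 3 rose as well, beside the same 0.634%, and 14 of the 22 measured lay below the median in all 4 arrays. All 3 had both controls below the median and entered the test through the mutants. Gpr50, a relative of the melatonin receptors, had 3.90 and 3.25 in mutants, against 0.473 and 0.467 in controls (at least 3.56-fold), and Rpe65, the retinoid isomerase of the eye, had 1.97 and 1.78 in mutants, against 0.335 and 0.620 in controls (at least 1.87-fold). Dct, an enzyme of melanin synthesis, had 2.67 and 1.08 in mutants, against 0.489 and 0.209 in controls (at least 1.7-fold). The Dct arrays were far apart within each group, and its call was lost without mutant 1 or control 2 (adjusted p up to 0.0689), as was that of Rpe65 without control 1 (0.188). Tdo2, which opens the tryptophan ring and is also a gene of dentate granule cells, had 1.81 and 1.59 in mutants, against 0.207 and 0.204 in controls (at least 1.7-fold). It was the 1 gene called of 15 tested hippocampal genes, whose median log2 difference was -0.048, and it entered the test through the mutants. Of 7 tested germ cell genes 1 rose, Dppa5a, a pluripotency-associated RNA-binding protein, with 2.78 and 2.10 in mutants, against 1.12 and 1.10 in controls (2.18-fold), a call lost without mutant 1 or either control (adjusted p up to 0.34).

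Detoxifying and steroid enzymes rose in part. Of 36 tested, 6 rose and 0 fell, against 0.634% and 0.103% over all genes, with a median log2 difference of 0.16. Among these 6, Gsta2 and Aldh3a1 had both controls below the median and entered the test through the mutants. Gsta2, a glutathione transferase of liver, had intensities of 1.95 and 3.13 in mutants, against 0.330 and 0.276 in controls (at least 2.47-fold), and Gstm7, another glutathione transferase, had 7.51 and 7.01 in mutants, against 3.67 and 3.37 in controls (2.06-fold, limma adjusted p = 0.00345). Hsd11b1, which regenerates active glucocorticoid, had 16.1 and 16.9 in mutants, against 8.10 and 6.18 in controls (2.33-fold). Aldh1a1, a retinaldehyde dehydrogenase, had 64.3 and 55.1 in mutants, against 28.7 and 29.6 in controls (2.04-fold). Ces5a, a carboxylesterase, rose 1.74-fold, and Aldh3a1, an aldehyde dehydrogenase of cornea and stomach, at least 1.74-fold. Mutants lay above both controls for each of these enzymes, as for 18.4% of all genes tested. The calls of Hsd11b1, Aldh1a1 and Ces5a were lost without any 1 of the 4 arrays (adjusted p up to 0.682, 0.619 and 0.0968), that of Aldh3a1 without either mutant or control 2 (up to 1) and that of Gstm7 without mutant 1 or control 2 (up to 0.111). Gsta2 kept its call without any 1 array. The peroxidase gene Gpx3, which lies outside the named rule and was picked after its values were seen, had 5.31 and 7.31 in mutants, against 1.61 and 2.33 in controls (3.22-fold), a call lost without mutant 2 or control 1 (adjusted p up to 0.228).

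The immune genes that rose in the lists were Casp1, Ifitm2 and Ifih1, where 0.634% of all genes tested rose. Casp1 was the 1 gene called of 12 tested inflammasome and cell death genes. Pycard, the adaptor that recruits Casp1, had intensities of 1.13 and 1.39 in mutants, against 1.70 and 1.27 in controls, and its substrate Il18 had 11.2 and 10.6 in mutants, against 10.4 and 11.8 in controls, so neither was called. Of 26 tested interferon-stimulated and antigen processing genes 2 rose, with a median log2 difference of 0.32, against -0.022 over all genes tested. Ifitm2, a membrane protein that limits virus entry, had 2.42 and 2.99 in mutants, against 0.989 and 1.20 in controls (2.47-fold, limma adjusted p = 0.000674), and Ifih1, a cytoplasmic sensor of double-stranded RNA, had 4.99 and 4.84 in mutants, against 2.69 and 2.77 in controls (1.8-fold, 0.0367). Ifitm2 was lost without mutant 2 or control 1 (adjusted p up to 0.0789) and Ifih1 without any 1 array (up to 0.448). Genes of antigen presentation were not called: H2-D1 had 23.0 and 19.0 in mutants, against 14.5 and 14.3 in controls, and the invariant chain gene Cd74 had 1.31 and 1.73 in mutants, against 0.590 and 0.955 in controls. None of 20 tested microglia and macrophage genes was called, with a median log2 difference of 0.033 and summed intensities of 415 and 402 in mutants, against 402 and 398 in controls.

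There were 12 genes that fell, 11 of them with a gene name. Besides Amn, Ehmt2, Slc5a5 and Kdm3b, the larger falls were those of Ighm and Reep6. Ighm, the constant region of immunoglobulin M, had intensities of 3.84 and 4.90 in mutants, against 12.7 and 11.4 in controls (36% of control, log2 difference -1.48, SE 0.29, limma adjusted p = 0.00196). The Ighm probe sets disagreed: a second one had 1.05 and 1.65 in mutants, against 8.25 and 9.44 in controls, while another had 2.86 and 3.06 in mutants, against 3.05 and 3.08 in controls. One more pointed the other way, with 2.11 and 2.54 in mutants, against 1.37 and 1.21 in controls, and was not called. Reep6, which shapes the endoplasmic reticulum, had 1.97 and 2.00 in mutants, against 5.07 and 4.73 in controls (40.6% of control). Wnt2, a secreted Wnt ligand, had 0.614 and 0.458 in mutants, against 1.55 and 2.04 in controls (at least 1.77-fold lower). It was the 1 gene called of 39 tested Wnt, activin, nodal and BMP genes, beside 0.737% of all genes tested. C1qtnf12, the adipokine adipolin, had 15.1 and 14.5 in mutants, against 27.0 and 25.1 in controls (56.8% of control, limma adjusted p = 0.000418), and kept its call without any 1 array. Plcxd1, a phospholipase-like protein, fell to 57.1% of control.

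Creb3, a transcription factor anchored in the endoplasmic reticulum, had intensities of 19.6 and 19.0 in mutants, against 34.9 and 31.7 in controls (58% of control). Pigo, an enzyme of the GPI anchor, had 10.3 and 10.4 in mutants, against 17.7 and 17.6 in controls (59% of control). Other probe sets of both genes did not show these falls. Log2 differences of -0.08 and -0.01 were measured by 2 more Creb3 probe sets. A second Pigo probe set had 10.6 and 10.1 in mutants, against 10.8 and 10.5 in controls. The calls of Wnt2, Plcxd1, Creb3 and Pigo were also lost without any 1 of the 4 arrays (adjusted p up to 0.45, 0.482, 0.512 and 0.182), that of Ighm without mutant 1 or control 1 (up to 0.137) and that of Reep6 without control 1 (0.0627). Amn, Ehmt2 and C1qtnf12 were the named falls that remained without any 1 array.

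The genes that define cortical neurons and their synapses gave no calls. In lists of this size the share called over all genes tested gives few calls or none. Large changes of Slc17a7, Tbr1 and Neurod6 could go uncalled, as given above. None was called among 24 tested genes of cortical excitatory neurons (median log2 difference -0.058), 22 of interneurons (-0.06), 30 of glutamate receptors and postsynaptic scaffolds (-0.1), 13 of GABA and glycine receptors (-0.061), 38 potassium channels (-0.061), 25 sodium, calcium and HCN channels (-0.033), 31 of synaptic vesicles (-0.026) and 26 neuropeptide precursors (-0.034), beside 0.737% of all genes tested with a median of -0.022. Immediate early genes, which follow neuronal activity, had 0 of 30 called and a median of -0.073. Egr1, one of them, had intensities of 91.2 and 90.2 in mutants, against 113 and 92.5 in controls, and Fos had 20.4 and 26.8 in mutants, against 26.5 and 22.5 in controls. Fos overlapped between the groups, and the Egr1 mutants lay just below the lower control. Egr2 had 2.43 and 1.91 in mutants, against 4.37 and 2.81 in controls, and Dusp6, a phosphatase that ends ERK signalling, had 10.9 and 9.17 in mutants, against 17.2 and 14.8 in controls (limma adjusted p = 0.711), without a call. Respiratory chain (43 tested) and ribosomal protein genes (23 tested) gave 0 calls, with medians of -0.032 and 0.0052. One brain receptor gene outside these lists' calls did rise: Gabra6, a GABA-A receptor subunit of cerebellar granule cells, picked after its values were seen, had 2.22 and 1.74 in mutants, against 0.269 and 0.265 in controls (at least 1.96-fold).

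Markers of other cells in the dissected tissue had no calls either, where 0.737% of all genes tested were called, a share that gives under 1 call in lists of this size. Meningeal and fibroblast genes had 0 of 26 called but a median log2 difference of 0.44, with summed intensities of 519 and 495 in mutants, against 293 and 480 in controls, so control 1 stood apart and control 2 was near the mutants. Controls 1 and 2 had intensities of 2.49 and 2.72 for Lama2, 1.62 and 1.92 for Ddr2, 1.47 and 1.90 for Itga8 and 1.02 and 1.12 for Col22a1. The part of meningeal RNA in the rises of these matrix genes was not tested. Choroid plexus and ependymal genes had 0 of 13 called, a median of 0.049 and sums of 135 and 674 in mutants, against 197 and 99.3 in controls, with mutant 2 highest through Ttr. Kcnj13, a potassium channel of the choroid plexus, had 1.62 and 3.72 in mutants, against 1.06 and 1.17 in controls, and the BMP antagonist gene Sostdc1 had 0.764 and 1.85 in mutants, against 1 and 0.658 in controls. Kl, Folr1 and Calml4 were highest in mutant 2 too, while Cab39l and Slc31a1 had log2 differences of -0.10 and -0.04. The part of choroid plexus RNA in the calls was not tested. Endothelial and mural genes had 0 of 22 called (median 0.15) and astrocyte genes 0 of 21 (0.034). Oligodendrocyte and myelin genes had 0 of 26 called and a median of -0.17. Striatal neuron genes, which a dissection of cortex may carry, had 0 of 19 called, a median of -0.26 and sums of 464 and 416 in mutants, against 590 and 499 in controls. Among 16 tested genes next to Camk2a, the source of the Cre driver, 0 were called. Slc6a7, the brain proline transporter gene among them, had 84.0 and 78.7 in mutants, against 30.5 and 30.9 in controls (log2 difference 1.41, SE 0.55, limma adjusted p = 0.879), and Arsi, an arylsulfatase gene, had 1.24 and 1.32 in mutants, against 0.563 and 0.495 in controls (1.28, SE 0.54, adjusted p = 1). Camk2a itself had 105 and 103 in mutants, against 104 and 99.8 in controls.

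**Figure D3:**
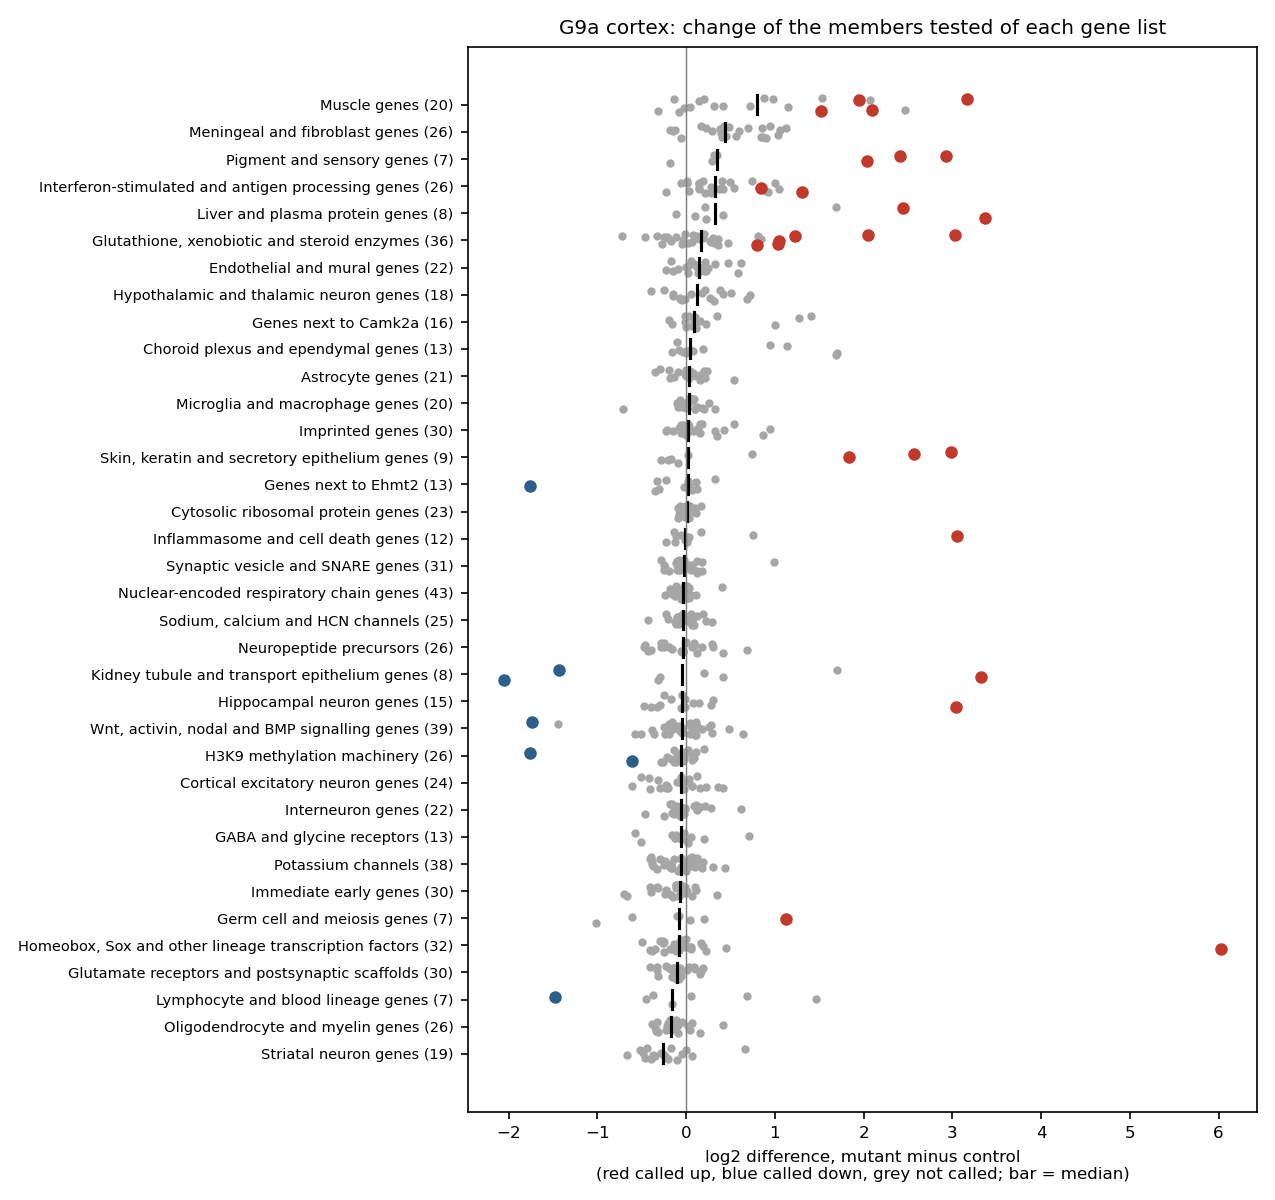
Log2 difference (mutant minus control, horizontal axis) of each tested member of the gene lists with 5 or more members tested, in the G9a cortex, with the number tested in brackets and a bar at the median; red and blue points are genes that rose or fell at an adjusted p under 0.05 and grey points were not called. Medians of the cortical excitatory, interneuron and synaptic vesicle lists lie at -0.058, -0.06 and -0.026, while muscle and meningeal genes have the highest medians, at 0.80 and 0.44.

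The changes of the G9a cortex were set beside those of the other 7 whole-tissue comparisons, whose controls are other arrays. Of the 74 genes that rose, 60 (81.1%) also rose in the GLP cortex, where they made up 39.2% of 153 genes that rose (1.32% of genes tested there). In the G9a hippocampus 48 (64.9%) rose, 17.9% of 268 genes there (2.28%), and in the G9a striatum 34 (45.9%) rose, 15.7% of 217 (1.88%). Of the 12 genes that fell, 8 fell in the GLP cortex, out of 26 there (0.224%). In the G9a hippocampus 7 of the 12 fell, out of 56 (0.477%), as did 7 in the G9a striatum, out of 133 (1.15%). No gene was called in opposite directions in any of the 7. Dach2, Tnnt2, Serpinb1b, Olfm4, Ifitm2, Gstm7 and Ces5a rose in all 8 comparisons and Amn fell in all 8. Over all genes tested, the shares called were 1.55% in the GLP cortex, 2.76% in the G9a hippocampus and 3.03% in the G9a striatum. They were 2.33% in the G9a hypothalamus (1.59% up, 0.741% down), 2.08% in the GLP hippocampus (1.76% up, 0.317% down), 1.67% in the GLP striatum (1.16% up, 0.511% down) and 1.02% in the GLP hypothalamus (0.832% up, 0.191% down). Dach2 intensities ranged between 20.1 and 65.0 over the mutant arrays of the 8 comparisons and between 0.299 and 3.15 over the control arrays.

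**Figure D4:**
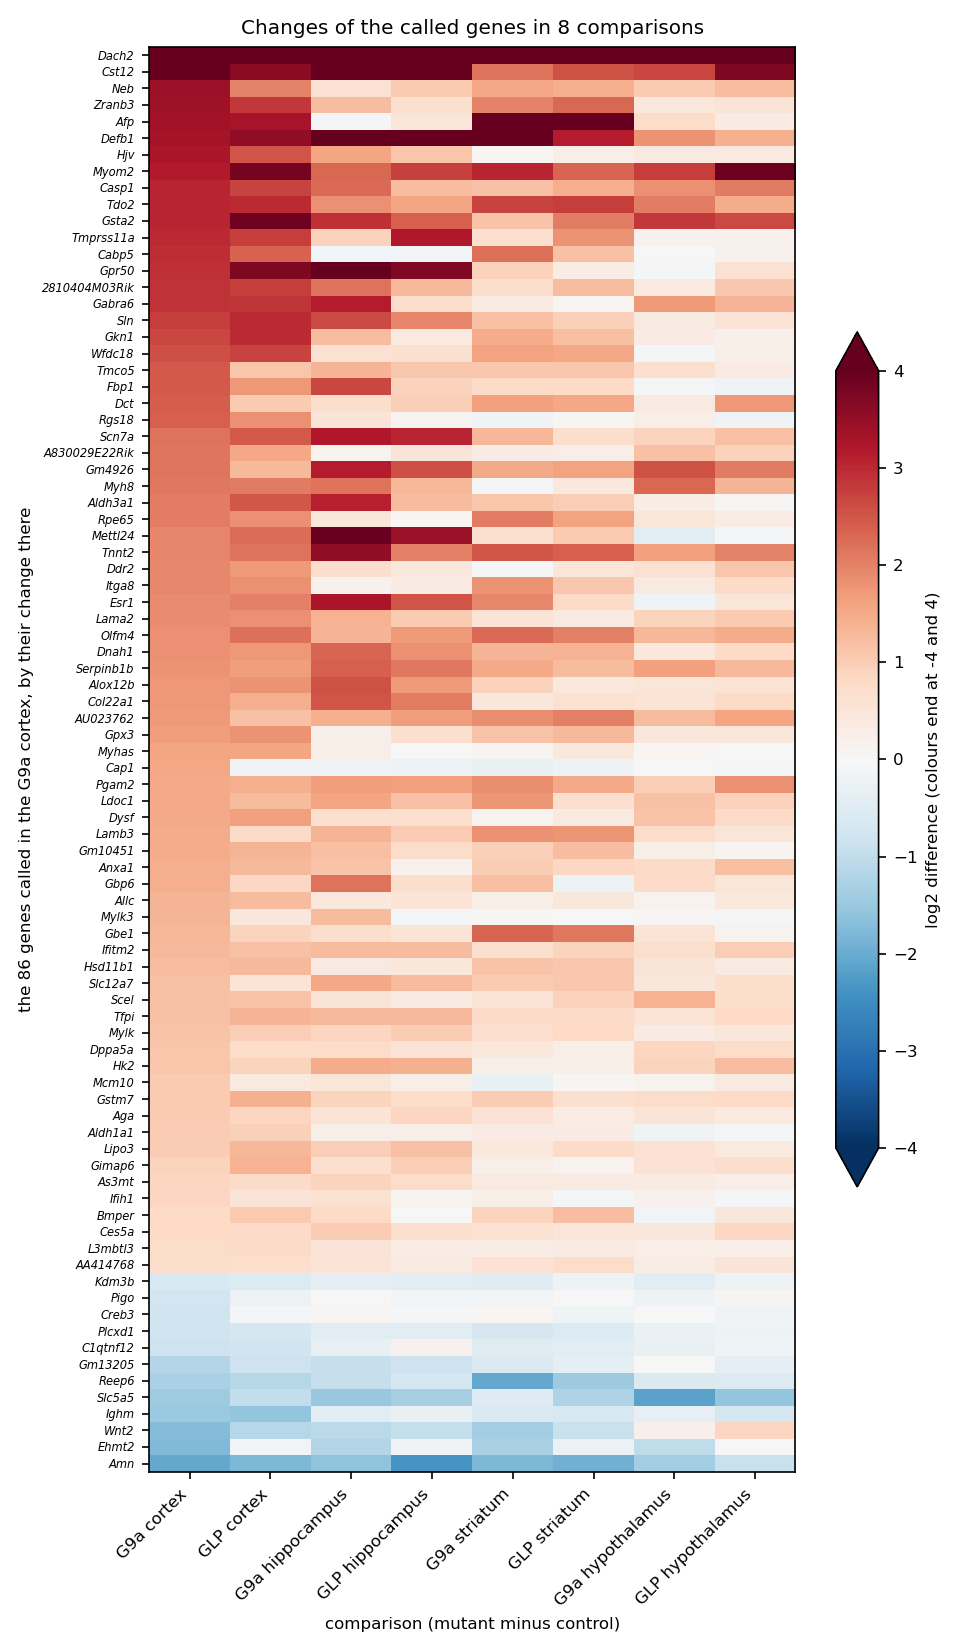
Log2 difference (mutant minus control, colour scale ending at -4 and 4) of the 86 genes called in the G9a cortex, in rows from the largest rise to the largest fall there, in each of the 8 whole-tissue comparisons in columns. The GLP cortex column is the most like the G9a cortex column, while Cap1 is strongly red in the G9a cortex alone and Afp is red in both cortices and both striata.

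Called in none of the other 7 comparisons were Cap1, Tmco5, Neb, Rgs18, Mylk3, Mcm10 and 1 gene with a clone name among the rises, and Pigo and Creb3 among the falls. A call in one comparison and not in another is no test of a difference, and Neb, Rgs18, Tmco5, Mylk3 and Mcm10 were under the filter in all the others. Differences from the GLP cortex, the G9a hippocampus and the G9a striatum were therefore tested directly, and those from the remaining comparisons were not. Against the GLP cortex, 2 of 11748 genes (0.017%) changed by a different amount, 1 each way (0.00851% each): Cap1 and the deleted gene Ehmt2 (difference of log2 changes -1.65, SE 0.24, limma adjusted p = 3.49e-05). Ehmt1, the gene deleted in the GLP cortex, was not among them, although its intensity there ranged between 3.87 and 4.31 in mutants, against 5.93 to 7.77 in controls. Against the G9a hippocampus, 17 of 12094 genes differed (0.141%), 8 with a more positive change in the G9a cortex (0.0661%) and 9 with a more negative one (0.0744%). Against the G9a striatum, 17 of 12034 differed (0.141%), likewise 8 (0.0665%) and 9 (0.0748%). Tmco5, Mylk3, Mcm10, Pigo and Creb3 differed in none of these tests, and Tmco5 had log2 differences between 0.33 and 1.35 in the other 7 comparisons.

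Cap1, the cyclase-associated protein that recycles actin monomers, differed in all 3 tests. Its intensities were 65.7 and 64.8 in G9a cortex mutants, against 23.1 and 21.1 in their controls (2.95-fold, log2 difference 1.56, SE 0.15, limma adjusted p = 4.06e-10). In GLP cortex mutants Cap1 ranged between 21.1 and 26.3 over 4 arrays, against 23.9 to 27.3 in their controls, and the difference of the log2 changes was 1.70 (SE 0.19, limma adjusted p = 5.65e-08). It was 1.70 (SE 0.19) against the G9a hippocampus and 1.84 (SE 0.19) against the G9a striatum. In none of the other 7 comparisons did every mutant array lie above every control for Cap1. A second Cap1 probe set had 6.88 and 8.34 in G9a cortex mutants, against 3.94 and 3.33 in controls (adjusted p = 0.00577 in a limma fit of every probe set). The genes next to Cap1 were not called: Ppt1, a lysosomal thioesterase, had a log2 difference of 0.34 and Mfsd2a, a lipid transporter of brain vessels, one of -0.14. Controls of the regions differed more than that change, from 8.55 in the lowest hypothalamus control to 81.1 in the highest striatum control.

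Rises were larger in the G9a cortex than in the G9a hippocampus for Zranb3, with a difference of log2 changes of 2.17 (SE 0.26, limma adjusted p = 2.04e-07), where hippocampal mutants ranged between 6.76 and 9.69, against 2.93 to 3.64 in their controls. Zranb3 also differed from the G9a striatum (1.42, SE 0.25), with mutants of 7.28 to 9.42 there, against 1.80 to 2.21 in controls. In the GLP cortex it ranged between 20.1 and 24.8 in mutants, against 2.59 to 4.22 in controls, close to the G9a cortex. Zranb3 thus had its highest mutant levels in both cortices. Rgs18, a regulator of G protein signalling of platelets and myeloid cells, had 1.72 and 1.41 in G9a cortex mutants, against 0.252 and 0.347 in controls (at least 1.56-fold). In the G9a hippocampus its mutants ranged between 0.134 and 0.259 and in the G9a striatum between 0.101 and 0.125, below the array median (differences of log2 changes 1.89, SE 0.30, and 2.54, SE 0.30). In a fit of the 4 groups concerned, the Rgs18 difference from the hippocampus was lost (adjusted p = 0.478). Neb differed from the G9a hippocampus too (2.81, SE 0.45), with mutants there of 0.137 to 0.271. In GLP cortex mutants Neb ranged between 0.807 and 1.12 and Rgs18 between 0.556 and 0.913, below the G9a cortex mutants, though neither difference passed the test.

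For other genes the change was larger in the G9a hippocampus or the G9a striatum than in the G9a cortex. Gprc5d, Ido2, Krt79, Corin and Cyp2c23 were under the filter in the G9a cortex, so their change there was not tested by itself. Gprc5d, an orphan receptor, had 0.123 and 0.128 in G9a cortex mutants, against 0.125 and 0.127 in controls, while G9a hippocampus mutants ranged between 1.60 and 2.23, against 0.0795 to 0.0946 in controls (difference of log2 changes -4.52, SE 0.35). Ido2, a tryptophan-degrading enzyme, and Krt79, a keratin of hair follicles, likewise lay below the array median in all 4 G9a cortex arrays and differed from the hippocampus by -2.76 (SE 0.42) and -2.40 (SE 0.37), 2 differences lost in a fit of the 4 groups concerned (limma adjusted p = 0.185 and 0.0914). The Krt79 difference was also lost, at -0.47 (limma adjusted p = 0.643), once dim values were raised to the array median. Corin, the cardiac protease that activates natriuretic peptide, was at 0.689 and 0.774 in G9a cortex mutants, against 0.397 and 0.492 in controls, while G9a striatum mutants ranged between 10.2 and 18.5, against 0.290 to 0.577 in controls (-4.61, SE 0.42). Ttn, the giant sarcomere protein titin, had 1.42 and 1.30 in G9a cortex mutants, against 0.616 and 0.615 in controls, while striatal mutants ranged between 31.9 and 36.5, against 0.138 to 0.389 in controls (-5.79, SE 0.67). Cyp2c23, an arachidonic acid epoxygenase, differed by -2.64 (SE 0.37) and Plce1, a phospholipase C, by -1.26 (SE 0.21). Afp rose in the G9a cortex and by more in the G9a striatum, where mutants ranged between 11.7 and 18.5 (difference -3.05, SE 0.54), and stayed between 0.113 and 0.133 in G9a hippocampus mutants (difference 3.41, SE 0.56). Many of these values lie below the array median, where intensities have little meaning as levels.

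**Figure D5:**
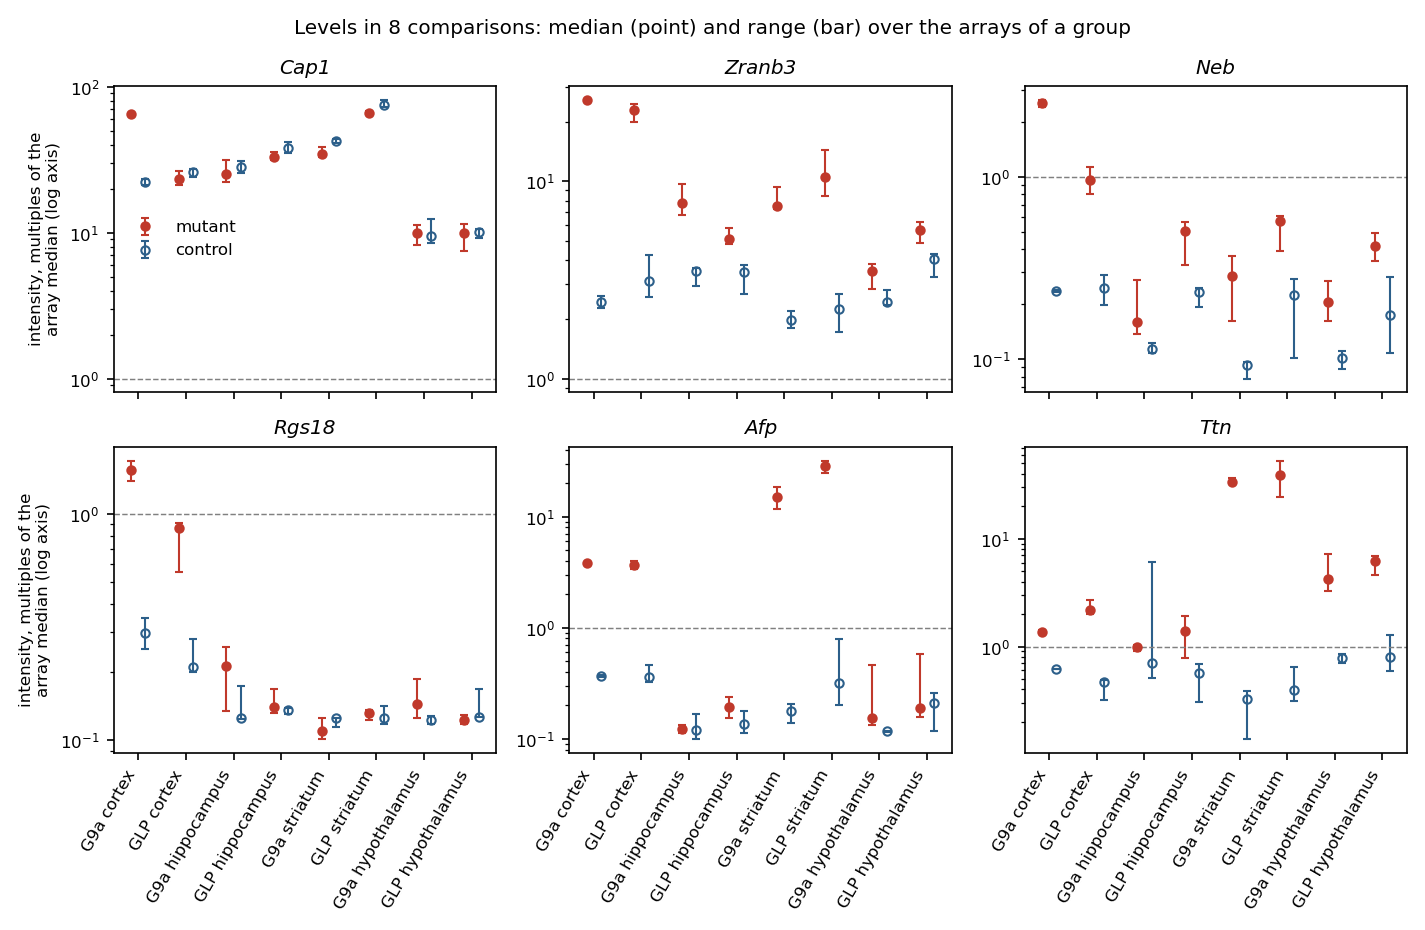
Median (point) and range (bar) of the intensity over the arrays of each group (log axis, multiples of the array median, dashed line at 1) for Cap1, Zranb3, Neb, Rgs18, Afp and Ttn, with mutants in filled red and controls in open blue, in 8 comparisons; G9a cortex groups hold 2 arrays, the G9a hippocampus controls 3 and all other groups 4. All Cap1 mutant arrays stand above all controls in the G9a cortex alone, while Ttn mutants are highest in the striata.

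Some genes that changed were neighbours on the chromosome, by the gene order of RefSeq on build GRCm38.p6. Anxa1, the annexin that mediates glucocorticoid actions, and Aldh1a1 have no other protein-coding gene between them, and neither have Gsta2 and Dppa5a. Hsd11b1 and Lamb3, a laminin chain of epithelia, are separated by 1 gene, and L3mbtl3, a reader of methylated lysines, and Lama2 by 2. These 4 pairs were the closest among the 86 genes called, and how often other genes tested lie this close was not counted. Both members of each pair rose, as did 74 of the 86 genes called. Pigo and Creb3, both called as falls, have 14 genes between them, and their other probe sets did not show these falls. Anxa1 had intensities of 5.79 and 6.28 in mutants, against 1.74 and 2.79 in controls (2.74-fold), a call lost without either mutant or control 1 (adjusted p up to 0.785). L3mbtl3 had 28.3 and 29.9 in mutants, against 18.2 and 16.7 in controls (1.67-fold), a call lost without mutant 2 or control 2 (up to 0.105). Lamb3 had 1.25 and 1.36 in mutants, against 0.394 and 0.538 in controls (at least 1.3-fold), a call lost without either mutant or control 1. Of the 86 genes called, 43 had several probe sets, 20 had another one bright enough to test, 19 of these pointed the same way and 10 were called again.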

How the data were processed

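The 4 arrays of the G9a cortex and the other whole-tissue arrays, 59 in all, were analysed from the authors' deposited intensities, which the submitters' processing notes describe as made with GCRMA (version not given in the sources used here). Each array of these deposited values has a median of 1. Labels call the replicates biological, and p-values measure the spread between these samples. The 12 polyribosome arrays were not used here. Members and gene lists were chosen with earlier results of these data known.

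Intensities were put on a log2 scale. Of 45101 probe sets, 34945 carried 1 gene symbol, 932 several and 9160 none. For each of 18193 genes, the probe set with the highest mean over 59 arrays stood for the gene, and 11675 genes above the array median in at least 2 of the 4 arrays were tested, a filter that favours rises among dim genes. A model of group means (limma 3.58.1, R 4.3.3) was run with an intensity trend and Benjamini-Hochberg adjustment at 0.05. The named genes were the 20 largest rises and up to 12 largest falls, called members of lists, both targets and the 6 leading genes of each test between comparisons. Any other gene named was chosen after its values were seen. The fit was tested on simulated data. Alternatives covered the filter, a floor at the median, probe set averaging, normalization, the arrays in the fit, the replicate block and single arrays left out. The number of arrays limits the precision.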

Additional observations from a re-analysis of the deposited data

Results flagged for a closer look

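Changes in the G9a cortex were tested against those of other comparisons, as differences of log2 changes (G9a cortex minus the other, limma, Benjamini-Hochberg adjusted). Against the GLP cortex 2 genes differed. Cap1 had a difference of 1.7 and Ehmt2, the gene deleted in the G9a mutants, one of -1.651.

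Against the G9a hippocampus 17 genes differed, and the 6 leading named ones follow. Gprc5d had a difference of -4.517 and lay below the array median in every G9a cortex array. Cap1 had 1.699 and Zranb3 had 2.172, both with the larger change in the G9a cortex. Ido2 had -2.757 and Krt79 had -2.4, both below the array median in the G9a cortex. Rgs18 had 1.888 and lay below the array median in every G9a hippocampus array.

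Against the G9a striatum 17 genes differed as well. Corin had a difference of -4.605 and Ttn one of -5.786, with the larger change in the striatum. Cap1 had 1.845 and Rgs18 had 2.542, with the larger change in the G9a cortex. Cyp2c23 had -2.639 and Plce1 had -1.26. Groups of 2 arrays were too small for a search for single arrays far from the others.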

How the results depend on the processing

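The count of 86 genes in the G9a cortex was 52 with a filter on the mean of 59 arrays, 308 when only the compared groups were fitted, 177 with the 4 cortex groups alone and 53 with a floored difference of at least 1. It ranged between 46 and 51 when 1 of the 4 arrays was left out, and between 60 and 104 under the other settings. No named gene reversed its direction under any setting run. The test against the GLP cortex gave 7 genes in place of 2 with values below the median set to it. Against the G9a hippocampus the count of 17 was 8 with a filter at a log2 value of 1, 2 with the filter on the mean, 50 with the floor and 8 when only those groups were fitted, and 11 to 19 without single arrays. Against the G9a striatum the count of 17 was 35 with no filter, 7 with the filter on the mean, 61 with the floor and 27 when only those groups were fitted, and 11 to 25 without single arrays. Fewer genes tested and fewer arrays in the fit are part of these settings, and the cause of each shift was not tested.

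The labels number the arrays alike in both groups. Over the genes tested, mutant 1 minus mutant 2 was hardly correlated with control 1 minus control 2 (r = 0.028). With 2 arrays a side this cannot tell whether same-numbered mice were paired. With the replicate block, the fit called 93 genes, 82 of them among the 86, and the tests against the GLP cortex, hippocampus and striatum gave 2, 22 and 18. With 2 arrays a side, and many genes near or below the array median, small changes of dim genes could not be measured.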
